A study of Homo sapiens with 11 samples.

Results

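The genes described here are CYP1B1 and the genes that transmit or limit the signal of the aryl hydrocarbon receptor, namely CYP1B1, CYP1A1, AHR, AHRR, ARNT and TIPARP. They are 6 of the 28395 genes measured by RNA-Seq in PC3 and DU145, human prostate cancer cell lines grown from metastases, and all 6 passed the filter on low counts in every comparison. The group was chosen because CYP1B1 was recorded as the largest rise in PC3 with ST6GAL1 overexpression (number 3 among called genes here). The other 5 genes were added for their place in the pathway. Values of CYP1B1 in PC3 are therefore given as a description without a test. Each line had been stably transduced with a lentivirus, carrying either ST6GAL1, which adds sialic acid to glycoproteins, or a negative control, so all cells, controls included, carry a lentiviral insertion. There were 3 control and 3 ST6GAL1 overexpression libraries of PC3, and 3 control and 2 ST6GAL1 overexpression libraries of DU145. Whether a line is a pool or a single clone, and whether replicates are separate transductions, is not given in the sources used here, and p-values then measure the spread between these cultures only.

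The aryl hydrocarbon receptor AHR is a transcription factor of the bHLH-PAS family that waits in the cytoplasm in a complex with HSP90 and its co-chaperones. When it binds a ligand, such as a dioxin, a polycyclic aromatic hydrocarbon or a breakdown product of tryptophan, it moves to the nucleus, pairs with ARNT and binds DNA elements with the core GCGTG. CYP1A1 and CYP1B1, cytochrome P450 enzymes that oxidise aromatic hydrocarbons and oestrogens, are its classical target genes, and AHRR and TIPARP are targets that in turn restrain the receptor. CYP1B1 has been studied in prostate cancer as an enzyme that is raised in tumour tissue.

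The sequence just upstream of a gene's start shows where the receptor's DNA element could lie, and the 250 bases before the start are shown for the receptor and for targets and restraining genes of the pathway. They come from RefSeq on GRCh38.p14, 5′ to 3′ on the gene's strand, with capitals for the letters GCGTG or, for a match on the other strand, CACGC. RefSeq sequences were matched for 5 of the 6 genes. The gene without a match was CYP1B1, so the sequence upstream of CYP1B1 was not searched. AHR is shown from chr7:17298402-17298651 on the plus strand, CYP1A1 from chr15:74725529-74725778 on the minus strand, AHRR from chr5:321464-321713 on the plus strand and TIPARP from chr3:156674340-156674589 on the plus strand.
AHR: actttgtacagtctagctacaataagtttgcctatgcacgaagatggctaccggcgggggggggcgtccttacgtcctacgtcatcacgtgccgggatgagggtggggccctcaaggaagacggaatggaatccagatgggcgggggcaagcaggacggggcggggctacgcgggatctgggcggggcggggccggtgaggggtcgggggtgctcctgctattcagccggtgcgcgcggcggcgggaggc
CYP1A1: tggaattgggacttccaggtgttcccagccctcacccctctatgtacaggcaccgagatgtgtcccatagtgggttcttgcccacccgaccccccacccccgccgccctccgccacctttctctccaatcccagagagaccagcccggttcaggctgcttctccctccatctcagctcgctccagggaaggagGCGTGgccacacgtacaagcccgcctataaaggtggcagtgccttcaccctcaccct
AHRR: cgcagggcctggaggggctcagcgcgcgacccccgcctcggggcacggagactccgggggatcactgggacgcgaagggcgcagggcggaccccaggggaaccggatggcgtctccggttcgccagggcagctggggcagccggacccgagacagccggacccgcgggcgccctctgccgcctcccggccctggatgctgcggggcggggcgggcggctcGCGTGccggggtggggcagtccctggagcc
TIPARP: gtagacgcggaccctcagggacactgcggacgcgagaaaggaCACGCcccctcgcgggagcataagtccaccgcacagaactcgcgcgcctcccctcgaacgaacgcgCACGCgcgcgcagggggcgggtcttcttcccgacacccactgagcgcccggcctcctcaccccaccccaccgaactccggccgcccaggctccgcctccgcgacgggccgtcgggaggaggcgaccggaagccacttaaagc
The window of CYP1A1 held 1 match, and so did the first window of AHRR. The first window of TIPARP held 2 matches, both on the other strand. A second start of AHRR had 2 matches and a pair of further starts of TIPARP had 0. The windows of AHR and ARNT held 0. Across all 35116 windows of 27305 genes searched the same way, 32.2% held at least 1 match on either strand, so the letters are common in such windows. A match is a description of the letters and not a measured binding site, and windows further upstream were not searched.

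Of the 6 genes, AHR and CYP1A1 rose past both thresholds in DU145 cells with ST6GAL1 overexpression, where CYP1B1 was high in control cells already. Among all genes tested in DU145, 8.94% passed both thresholds in either direction. The call of CYP1A1 was lost with DESeq2 and in some fits with a single library left out, while that of AHR was kept. In PC3, CYP1B1 went from a mean of 0.623 CPM in control cells to 10.05 CPM, while the log2 fold changes of the other 5 genes lay between -0.03 and 0.18. Levels are given in CPM, the counts divided by the library total and scaled by TMM normalization, per library and as mean ± SD. For levels the scaling was done within each line, so small differences in level between the lines are not read. Each line was fitted with edgeR's quasi-likelihood test. A gene was called where its Benjamini-Hochberg adjusted p was under 0.05 and its log2 fold change was past 0.58 in either direction.

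**Figure D1:**
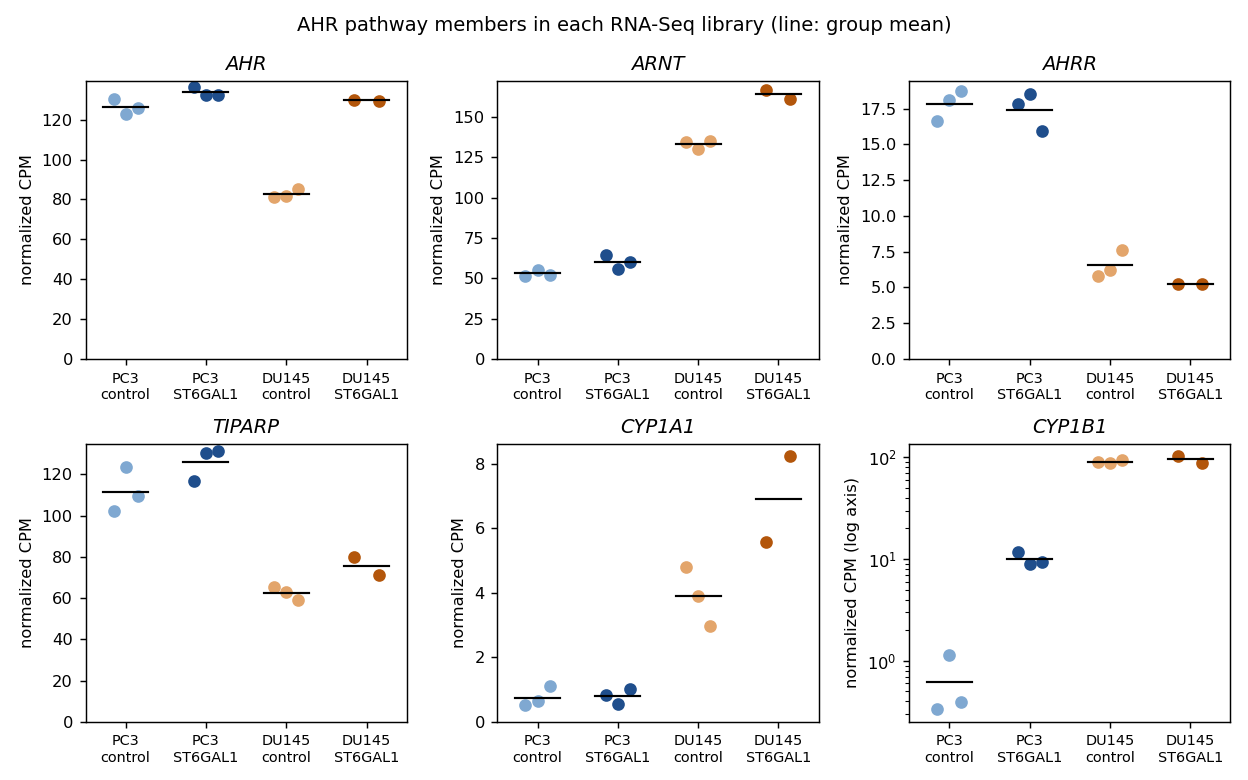
Normalized CPM (y axis, from 0, except CYP1B1 on a log axis) of the 6 genes in each of the 11 libraries, by cell line and lentivirus (x axis). Points are libraries and horizontal lines are group means. CYP1B1 lies between 8.95 and 11.8 CPM in PC3 overexpression libraries, above every PC3 control and below every DU145 library, and AHR in DU145 overexpression libraries lies near its PC3 level.

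AHR, the receptor, is on chromosome 7 from 17298652 to 17346147 in GRCh38. In DU145 it was read at 81.2, 82.0 and 85.1 CPM in the control libraries and at 130.1 and 129.2 CPM in the overexpression libraries. The groups do not overlap, and the lowest overexpression library was 1.52 times the highest control. AHR rose 1.57-fold, or by 0.65 on the log2 scale, with a standard error of 0.0728 and an adjusted p of 2.76e-05 in edgeR. In PC3 the levels were 130.3, 123 and 125.7 CPM in control libraries and 136.6, 132.3 and 132.2 with overexpression. The PC3 groups do not overlap either, but they lie close together, and differ by 0.08 on the log2 scale (standard error 0.0338). With overexpression, AHR in DU145 (129.6 ± 0.638 CPM) came near the PC3 control mean of 126 ± 3.69 CPM and the PC3 overexpression mean of 133.7 ± 2.49 CPM. The order of these means is not read, because the scaling was done within each line. In bulk RNA, more RNA per cell and more cells with the RNA cannot be told apart. The 50 nearest tested genes on the chromosome had a median log2 fold change of 0.025 in DU145. Of the 75-base windows of the AHR transcript 40.49% also occur in 2 other genes of the annotation, so reads from there cannot be told apart from those of AHR. The long non-coding RNA gene LOC101927609 also overlaps AHR on the genome.

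ARNT, the partner that AHR needs to bind DNA, is on chromosome 1 from 150809713 to 150876599. In DU145 it was read at 134.2, 129.9 and 135.1 CPM in control and at 166.5 and 161.4 CPM in overexpression libraries. The difference of 0.30 on the log2 scale (standard error 0.0711, adjusted p = 0.00829 from edgeR) passed the threshold on p but not that on fold change, and the groups do not overlap. In PC3 the values were 51.6, 55.4 and 52.3 CPM in control and 64.3, 56 and 60.2 CPM in overexpression libraries, which is 0.18 higher on the log2 scale (standard error 0.0486). The lowest PC3 overexpression library stood 1.01 times above the highest control.

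AHRR, the repressor that competes with AHR for ARNT, is on chromosome 5 from 321714 to 438285. It was the lowest of the pathway's regulators in each group. DU145 control libraries held 5.79, 6.25 and 7.60 CPM and overexpression libraries 5.24 and 5.23 CPM, and the difference of -0.32 on the log2 scale (standard error 0.171) did not pass the test (adjusted p = 0.221 from edgeR, 95% interval -0.653 to 0.018). In PC3, 16.6, 18.1 and 18.8 CPM in control libraries stood against 17.8, 18.5 and 15.9 CPM with overexpression, and the groups overlap (log2 fold change -0.03, standard error 0.0777). The readthrough gene PDCD6-AHRR shares 98.1% of the 75-base windows of the AHRR transcript, so reads of the 2 genes could not be separated and the level of AHRR is uncertain.

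TIPARP, an enzyme that attaches ADP-ribose to AHR and dampens it, is on chromosome 3 from 156674590 to 156706770. DU145 control libraries held 65.5, 63.1 and 59.2 CPM and overexpression libraries 80.0 and 71.1 CPM. The difference of 0.27 on the log2 scale (standard error 0.0864, adjusted p = 0.0399 from edgeR) passed the threshold on p only. In PC3 the groups overlap, with 102.1, 123.5 and 109.4 CPM against 116.9, 130.3 and 131.3 CPM and a difference of 0.18 on the log2 scale (standard error 0.0789). TIPARP-AS1, which overlaps TIPARP on the genome, held 15, 18, 26 and 18 counts summed over the libraries of the PC3 control, PC3 overexpression, DU145 control and DU145 overexpression groups.

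CYP1A1, the classical readout of AHR activity, is on chromosome 15 from 74719542 to 74725528 and had low counts. DU145 control libraries held 4.81, 3.91 and 2.98 CPM, from 73, 62 and 40 reads, and overexpression libraries held 5.56 and 8.24 CPM, from 86 and 148 reads. The groups do not overlap, but the gap between the highest control and the lowest overexpression library is 1.16-fold, smaller than the spread within either group. CYP1A1 rose 1.77-fold, or by 0.82 on the log2 scale, with a standard error of 0.225 and an adjusted p of 0.0236 in edgeR. This call was lost with DESeq2 (adjusted p = 0.059) and in edgeR without control replicate 2 (0.159), without control replicate 3 (0.105) and without overexpression replicate 3 (0.106). In PC3 it was read at 0.504, 0.634 and 1.11 CPM in control and at 0.818, 0.553 and 1.01 CPM in overexpression libraries, from 9 to 17 reads per library, and the groups overlap. At this depth the 95% interval of its PC3 log2 fold change was -0.616 to 0.792, so a rise or a fall within that range is compatible with the counts.

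CYP1B1, on chromosome 2 from 38067509 to 38076151, was near absent from PC3 control cells. Their libraries held 0.336, 1.14 and 0.392 CPM, from 6, 18 and 6 reads, and overexpression libraries 11.8, 8.95 and 9.42 CPM, from 173, 162 and 149 reads. Every overexpression library was at least 7.85 times the highest control. The log2 fold change, given as a description since it chose the gene, was 4.01 (standard error 0.224), or 16.1-fold, and it was 4.76 without PC3 control replicate 2, the control library with the most reads of the gene. By fitted log2 fold change CYP1B1 was number 3 among the genes called in PC3, after SP8 (4.65) and LPCAT2 (4.32). It was number 1 among those whose mean in control or in overexpression cells reached 10 CPM, and ST6GAL1 itself followed with 3.58. The cut at 10 CPM was not part of the rule that chose the gene. CYP1B1 passed it only by its overexpression mean of 10.05 CPM. The 50 nearest tested genes to CYP1B1 had a median log2 fold change of 0.012 in PC3.

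The same gene in DU145 was already abundant. Control libraries held 90.3, 88.4 and 93.6 CPM and overexpression libraries 102.1 and 88.7 CPM. The groups overlap, and the difference of 0.07 on the log2 scale (standard error 0.0824, adjusted p = 0.587 from edgeR) has a 95% interval of -0.09 to 0.233. PC3 cells with overexpression still held CYP1B1 at 10.05 ± 1.52 CPM against 90.8 ± 2.67 CPM in DU145 control cells.

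**Figure D2:**
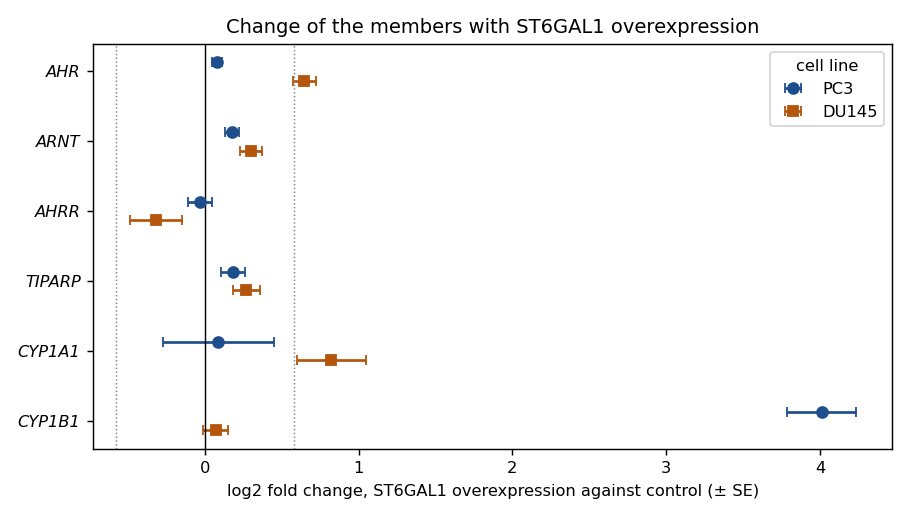
Log2 fold change of ST6GAL1 overexpression against control (x axis) for each of the 6 genes (y axis) in PC3 (circles) and DU145 (squares), with bars for the standard error and dotted lines at the fold change threshold of 0.58 in either direction. AHR and CYP1A1 lie past it in DU145, at 0.65 and 0.82, and CYP1B1 lies past it in PC3, at 4.01.

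Genes that are high in DU145 and near absent from PC3 were examined in PC3 overexpression cells. CYP1B1 was chosen for its rise there, so that it stands first among them is fixed by the choice, and the values of interest are those of the other genes. There were 43 genes with a mean of at least 50 CPM in DU145 control and at most 1 CPM in PC3 control libraries, CYP1B1 among them. For these genes CPM are counts over the library total without TMM scaling. In PC3 overexpression libraries CYP1B1 stood at 10.9% of its DU145 control level, from 0.683% in PC3 control libraries. The median level of the 43 genes was 0.0594 CPM in PC3 control and 0.0576 CPM in PC3 overexpression libraries, both under the floor of 3 counts in a library. At the median they stood at 0.0301% and 0.068% of the DU145 level. In overexpression libraries 29 of them did not exceed their PC3 control mean, which under the floor can rest on single reads. GALNT14, the next highest after CYP1B1, stood at 1.91%. CYP1B1-AS1, which shares 8.88% of the 75-base windows of the CYP1B1 transcript, had 0 counts in all 6 PC3 libraries and 10 to 17 counts in each DU145 library.

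Of the 6 genes, 2 passed both thresholds in DU145, where 8.94% of 13676 genes tested did (4.33% higher and 4.61% lower), and 4 had an adjusted p under 0.05, where 20.1% of all genes did. In PC3, 1 passed both thresholds, where 5.38% of 13544 genes did (3.61% higher and 1.76% lower), and 2 had an adjusted p under 0.05, where 37.3% did, and nothing is read from these counts because the contrast chose the gene. The median log2 fold change of the 6 genes was 0.286 in DU145 and 0.132 in PC3, against -0.002 over all genes in both lines.

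In control cells, the 5 genes of the group that could be tested all differed between the lines. Compared with PC3 control cells, DU145 control cells had less AHR (log2 difference -0.60, adjusted p = 5.28e-12), less AHRR (-1.44, adjusted p = 7.06e-13) and less TIPARP (-0.82, adjusted p = 4.72e-12 from edgeR). They had more ARNT (1.34, adjusted p = 2e-19) and more CYP1A1 (2.41, adjusted p = 2.97e-09 from edgeR). CYP1B1 was higher by 7.20 on the log2 scale (standard error 0.137), given without a test because its PC3 control level entered the choice of the gene. The difference in AHR lies at the threshold and was -0.579 without DU145 control replicate 1. Among all genes tested 64.6% passed both thresholds in this comparison (31.8% higher and 32.8% lower in DU145), so a difference between the lines is common. The PC3 and DU145 libraries were deposited at different times in separate tables, and line and batch cannot be told apart.

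Per kilobase of transcript, levels can be set beside each other between genes. TIPARP led in PC3 control cells at 28.9 CPM per kb, followed by AHR at 20.2, ARNT at 11.3, AHRR at 3.15, CYP1A1 at 0.288 and CYP1B1 at 0.119 CPM per kb, and the SDs of the last pair overlap. DU145 control cells had ARNT first at 28.3 CPM per kb, then CYP1B1 at 17.4, TIPARP at 16.2, AHR at 13.3, CYP1A1 at 1.5 and AHRR at 1.16 CPM per kb. There CYP1B1 and TIPARP lay within their spread of each other, and so did CYP1A1 and AHRR. The ratio of CYP1B1 to CYP1A1 per kb was 0.415 in PC3 control and 6.32 in PC3 overexpression cells (both rest on CYP1A1 reads of 9 to 17 per library, and the control ratio is 0.225 without replicate 2 and 0.648 without replicate 3), and 11.6 in DU145 control and 6.9 in DU145 overexpression cells. The ratio of ARNT to AHR was 0.557 and 0.596 in PC3, where the receptor exceeded its partner, and 2.13 and 1.68 in DU145, where it did not.

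**Figure D3:**
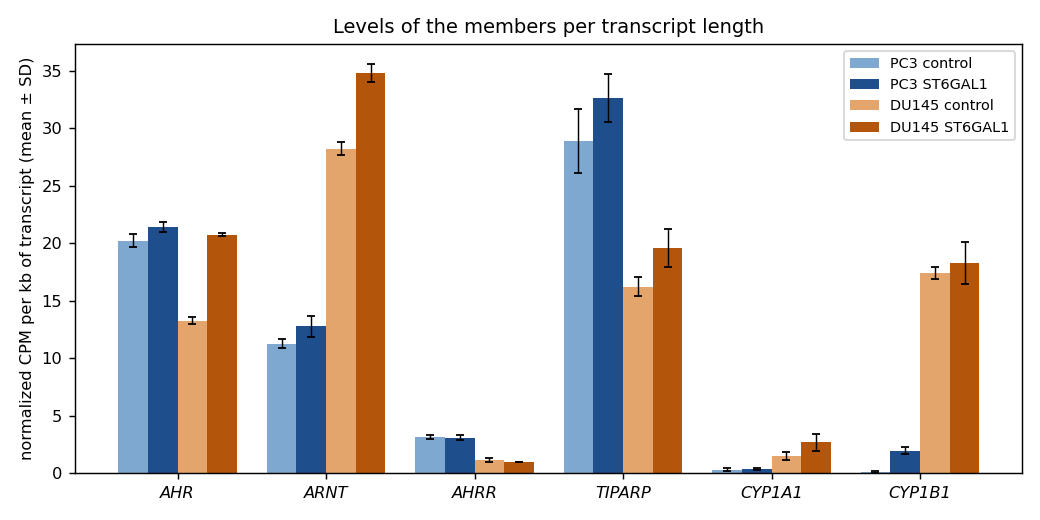
Normalized CPM per kilobase of transcript (y axis, mean with SD as error bars) for the 6 genes (x axis) in the 4 groups, with n of 3 libraries and of 2 for DU145 ST6GAL1 overexpression. ARNT and CYP1B1 stand higher in DU145, TIPARP and AHRR stand higher in PC3, and AHR reaches 20.8 CPM per kb in DU145 overexpression cells against 13.3 in DU145 control cells.

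The effect of overexpression in DU145 minus that in PC3 was 0.56 (standard error 0.069) for AHR and -3.94 (standard error 0.282) for CYP1B1 on the log2 scale. Over all genes 19.7% had an adjusted p under 0.05 for such a difference, 10.4% with a higher and 9.36% with a lower value in DU145. For CYP1A1 it was 0.73, but with a standard error of 0.472. The differences for ARNT, AHRR and TIPARP were 0.12, -0.29 and 0.09. These values hold the PC3 contrast that chose the group and are given without a test.

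A list of 60 further genes covers the parts of the pathway around these 6. In PC3, 43 of them were tested, of which 3 rose and 40 were not called (6.98% called, against 5.38% of all genes), and in DU145 42 were tested, of which 4 rose and 3 fell (16.7%, against 8.94% of all genes). The median log2 fold change was -0.005 in PC3 and -0.054 in DU145, against -0.002 for all genes. Of the 60 genes 8, namely SIM1, CYP1A2, UGT1A6, GSTA1, GSTA2, TDO2, IDO2 and SULT1E1, were at or under the floor of 3 counts in every library.

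**Figure D4:**
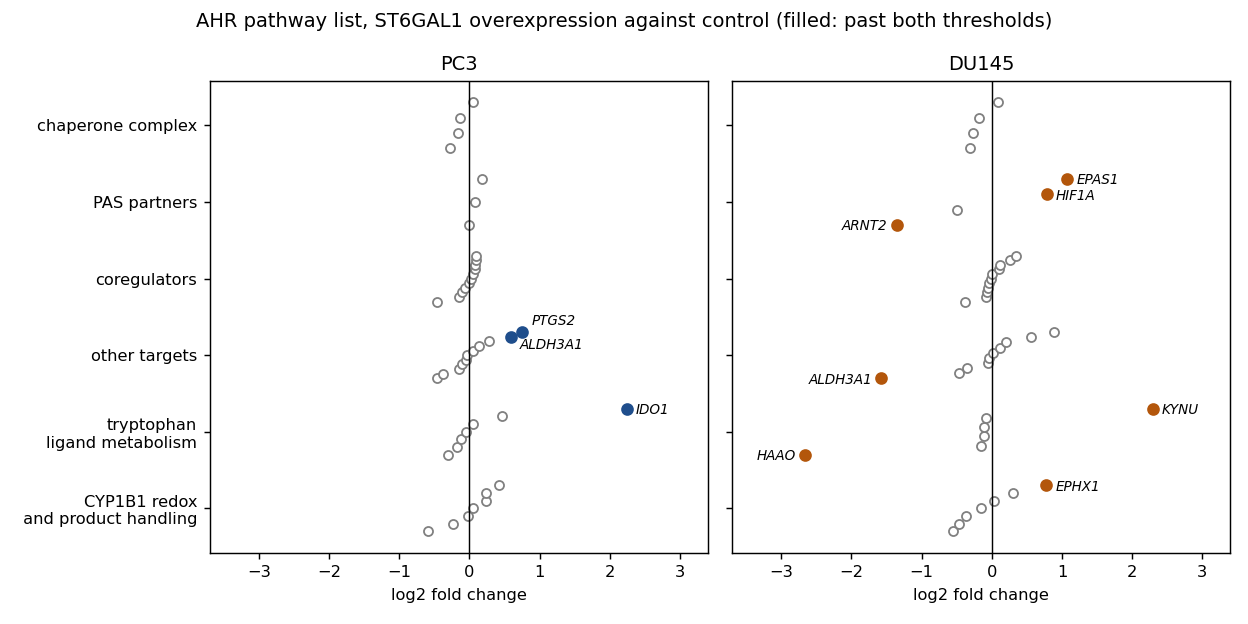
Log2 fold change of ST6GAL1 overexpression against control (x axis) for the tested genes of the pathway list, grouped by role (y axis), in PC3 (left) and DU145 (right). Filled and named points passed both thresholds. There were 3 such genes in PC3, all higher, and 4 higher and 3 lower in DU145.

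The chaperone complex that holds AHR in the cytoplasm, with HSP90AA1, HSP90AB1 and PTGES3 among its genes, had 0 of 4 genes called in either line by edgeR, DESeq2 or limma-voom. Without the fold change threshold, 3 in PC3 had an adjusted p under 0.05, where 37.3% of all genes did, and 1 in DU145, where 20.1% did. HSP90AA1 at -0.28 on the log2 scale (adjusted p = 8.59e-13), HSP90AB1 at -0.14 and PTGES3 at -0.17 were lower in PC3. At an unadjusted p under 0.05 there were 3 in PC3 and 2 in DU145, against 45.1% and 32.6% of all genes. Of the 12 coregulators 11 were tested, and again 0 were called in either line by any of these tools. At an adjusted p under 0.05 alone there were 2 in each line, under the 37.3% and close to the 20.1% of all genes, and at an unadjusted p under 0.05 there were 4 in PC3 and 3 in DU145. NRIP1, which binds nuclear receptors and AHR as a cofactor, stayed under the fold change threshold in both lines but went in opposite directions. In PC3 its log2 fold change was -0.46 (adjusted p = 1.01e-15) and in DU145 0.34 (adjusted p = 0.00736 from edgeR).

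Among proteins that share the PAS domain with AHR or compete for ARNT, 3 of the 4 tested in DU145 were called. That is 75%, against 8.94% of all genes. HIF1A, the oxygen-sensing partner of ARNT, was read at 451, 444 and 448 CPM in DU145 control libraries and at 803 and 736 CPM with overexpression, and rose by 0.78 on the log2 scale (adjusted p = 6.57e-06 from edgeR). EPAS1, its close relative, held 115, 106 and 118 CPM in control against 231 and 244 CPM in overexpression libraries and rose by 1.08 (adjusted p = 3.92e-07 from edgeR). ARNT2, a relative of ARNT, held 38.0, 40.5 and 36.0 CPM in control libraries and fell to 15.6 and 14.3 CPM, a difference of -1.35 on the log2 scale (adjusted p = 1.56e-06 in edgeR). In each of these genes the overexpression libraries lie apart from all controls, but the share of all genes that do so was not computed. In PC3 0 of 3 tested were called by edgeR, DESeq2 or limma-voom. Of these 3 genes, 2 had an unadjusted p under 0.05, against 45.1% of all genes. The 2 were HIF1A at 0.08 on the log2 scale (adjusted p = 0.00447) and EPAS1 at 0.17 (adjusted p = 0.00115 from edgeR), both under the fold change threshold.

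Of other genes known as AHR targets, 2 of 11 tested were called in PC3 (18.2%, against 5.38% of all genes) and 1 of 10 in DU145 (10%, near the 8.94% of all genes). ALDH3A1, an aldehyde dehydrogenase of the AHR battery, was called in opposite directions. In PC3 it was read at 75.2, 102 and 89.0 CPM in control and at 134, 131 and 134 CPM in overexpression libraries (0.59 on the log2 scale, adjusted p = 0.0207 in edgeR), a call at the edge of the fold change threshold that was lost in 5 of 6 fits with 1 library left out. In DU145 its 3.42, 3.47 and 3.88 CPM in control libraries stood against 1.10 and 1.28 CPM (-1.58 on the log2 scale, adjusted p = 4e-04 in edgeR). PTGS2, the inducible cyclooxygenase, held 0.839, 1.39 and 1.04 CPM in PC3 control and 1.84, 2.04 and 1.58 CPM in PC3 overexpression libraries (log2 fold change 0.75, adjusted p = 0.02 from edgeR and 0.118 from DESeq2). The call of PTGS2 was also lost in edgeR without control replicate 1 (adjusted p = 0.124), control replicate 3 (0.0543) or overexpression replicate 2 (0.104).

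Tryptophan breakdown supplies kynurenine and related ligands of AHR. Of its 12 enzymes 7 were tested in PC3, where 1 was called (14.3%, against 5.38% of all genes), and 6 in DU145, where 2 were (33.3%, against 8.94%). IDO1, which opens the ring of tryptophan in the first step, had 5, 9 and 0 counts in PC3 control libraries and 13, 25 and 29 counts with overexpression (log2 fold change 2.24, adjusted p = 0.000199 from edgeR and 0.0519 from DESeq2), and 0 counts in all 5 DU145 libraries. Without PC3 control replicate 2 its log2 fold change was 3.13, and without PC3 control replicate 3, the library at 0, it was 1.71. IDO1 passed the filter on low counts only through its overexpression libraries, where it is higher, so its call is read as a description. KYNU, the kynureninase that consumes kynurenine, was read at 21.9, 21.8 and 20.7 CPM in DU145 control and at 114 and 97.7 CPM in overexpression libraries. It rose 4.92-fold (log2 fold change 2.30, adjusted p = 2.02e-09 from edgeR) and was the largest rise among the list genes tested in DU145. HAAO, a later enzyme of the pathway, fell in DU145 from 31, 42 and 30 counts to 6 and 6 counts (log2 fold change -2.66, adjusted p = 0.000137 from edgeR) and had 0 counts in all PC3 libraries. HAAO passed the filter in DU145 only through its control libraries, where it is higher, and its call is also read as a description. The other tested genes of this group, 6 in PC3 and 4 in DU145, were not called.

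Of the redox partners of CYP1B1 and the enzymes that handle its products, 7 of 8 were tested in each line. In DU145 1 was called (14.3%, against 8.94% of all genes). In PC3 0 were called by edgeR, DESeq2 or limma-voom, and 4 had an unadjusted and also an adjusted p under 0.05 in edgeR, where 45.1% and 37.3% of all genes did. They were EPHX1, POR and CYB5R3, which were higher, and CYB5A, an electron carrier to P450 enzymes, which was lower by -0.24 on the log2 scale (adjusted p = 0.000296). EPHX1, the epoxide hydrolase that works on the epoxides P450 enzymes make, was read at 138, 144 and 135 CPM in DU145 control and at 241 and 235 CPM in overexpression libraries (0.78 on the log2 scale, adjusted p = 4.43e-06 in edgeR). In PC3 it was higher by 0.42 (adjusted p = 3.93e-11 from edgeR), under the fold change threshold. POR, which passes electrons to all microsomal P450 enzymes, had a log2 fold change of 0.23 in PC3 (adjusted p = 5.13e-05) and of -0.15 in DU145 (adjusted p = 0.371 from edgeR).

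In control cells 32 of the 44 list genes tested differed between the lines, 20 higher and 12 lower in DU145 (72.7%, against 64.6% of all genes). Of the other AHR targets on the list all 12 tested differed, 7 higher and 5 lower in DU145. Among them NQO1, at a log2 difference of 2.35 (adjusted p = 1.69e-24), and ABCG2, at 7.40 (adjusted p = 5.5e-17 from edgeR), were higher in DU145, as CYP1A1 and CYP1B1 were. ALDH3A1 at -4.62 (adjusted p = 1.1e-12) and SERPINB2 at -8.18 (adjusted p = 1.05e-10 from edgeR) were lower. ABCG2 had 2 reads in all PC3 control libraries and SERPINB2 had 0 in those of DU145, so the sizes of these differences are uncertain.

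The genes whose levels followed CYP1B1 most closely over the 11 libraries were CAMK2N1 (Pearson r of log2 CPM 0.989), LPCAT2 (0.988), NLRC5 (0.988), RUNX3 (0.986) and CLU (0.986), out of 14235 genes compared. The 11 points fall apart by line, and the correlations are a description only. CAMK2N1, for example, was at 0.68 and 3.65 CPM in PC3 control and overexpression and at 31.6 and 23.7 CPM in DU145. Within the pathway ARNT (0.903) and CYP1A1 (0.832) correlated positively with CYP1B1, while AHRR (-0.857), TIPARP (-0.728) and AHR (-0.525) ran the other way. ARNT was only number 604 and CYP1A1 number 3034 among the genes compared, so many other genes correlated more closely.

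ST6GAL1 was at 2.71 and 32.6 CPM in PC3 control and overexpression cells and at 12.9 and 323 CPM in DU145, as the labels have it. The libraries held between 13194485 and 18201359 counts. The 2 DU145 overexpression libraries, behind every DU145 comparison of overexpression here, stood further apart than any other pair of replicates, with a chi-square per degree of freedom of 13.3 against 1.39 to 5.46 in the other pairs. Epithelial markers (KRT8, KRT18, KRT19, EPCAM and CDH1) were detected in all groups, at a summed 866 to 899 CPM in PC3 control and 892 to 901 CPM in PC3 overexpression libraries, and at 1297 to 1332 CPM in DU145 control and 1047 to 1172 CPM in DU145 overexpression libraries. CDH1 among them was at 9.17 and 23.7 CPM in PC3 control and overexpression cells. Of 6 prostate luminal markers KLK2 and KLK3 were at 0 in all libraries, and the 6 summed to 16.5 to 17.6 CPM in PC3 control and 21.4 to 22.4 CPM in PC3 overexpression libraries, with FOLH1 at 2.71 and 7.23 CPM and TMPRSS2 at 2.48 and 4.02 CPM. In DU145 they summed to 19.0 to 20.6 CPM in control and 22 to 24.6 CPM in overexpression libraries. Fibroblast markers other than collagens summed to at most 1.11 CPM and leukocyte markers to at most 2.73 CPM. In PC3 the 7 fibroblast markers summed to 29.5 to 31.6 CPM in control and 31.2 to 36.6 CPM in overexpression libraries, with COL3A1 at 3.84 and 15.1 CPM, COL1A1 at 25.5 and 18.4 CPM and PDGFRA at 0.609 and 0.228 CPM. The part of these markers in the results on CYP1B1 was not tested.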

How the data were processed

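RNA was extracted with an RNeasy kit and made into TruSeq Stranded mRNA libraries. Cutadapt (trimming), HISAT2 (alignment to hg38) and featureCounts (counting) were used by the authors, FastQC and limma also stand in the submitters' processing notes, and the deposited values are raw counts per Entrez gene in 1 table per line. The annotation and strand setting of the counting are not given in the sources used here. Of 28395 genes, 97.7% matched RefSeq symbols, and columns were matched to samples by name.

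Counts were analysed with edgeR 4.0.16 in R 4.3.3 (filterByExpr, TMM, robust quasi-likelihood test, Benjamini-Hochberg over all genes tested), per line, for control cells between lines and as an interaction over 11 libraries. Standard errors come from the F statistic, and 95% intervals from 1.96 standard errors. DESeq2 1.42.0 and limma 3.58.1 (voom), RLE factors, no filter, a mean of at least 1 CPM, the replicate block, other thresholds and each library left out were alternatives. Named were the 6 genes, list genes called in either line or in the interaction, list genes at or under 3 counts in every library, genes overlapping a member, and the 5 genes most correlated with CYP1B1 (prior count 2). The control-line examples NQO1, ABCG2 and SERPINB2, the genes that are high in DU145 and low in PC3, and SP8 were chosen after values were seen. The members and lists were chosen with earlier results of these data known. Every pair of replicate libraries differed by more than sampling noise (chi-square test). A floor of 3 counts is 0.165 to 0.227 CPM and covers counting error only. Some genes that enter the counts are not reported here by name. Scripts were tested on simulated data.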

Additional observations from a re-analysis of the deposited data

Results flagged for a closer look

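Genes are given here when the effect of ST6GAL1 overexpression differed between the lines, as the effect in DU145 less the effect in PC3 on the log2 scale, from the interaction term in edgeR's quasi-likelihood test. Of 48 list genes tested 16 had an adjusted p under 0.05, 33.3% against 19.7% of all 14952 genes. Among the 6 genes of the group, AHR differed by 0.56 and CYP1B1 by -3.94, with no test given because the PC3 contrast chose the group.

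The response was higher in DU145 for 8 list genes. KYNU differed by 2.60 (adjusted p = 1.64e-06), EPAS1 by 0.90 (1.09e-07), NRIP1 by 0.79 (2.79e-07) and HIF1A by 0.69 (2.43e-07). EPHX1, higher in both lines, differed by 0.35 (0.00336), NFE2L2, a regulator of antioxidant genes, by 0.34 (0.0141) and NCOA3, a coactivator, by 0.25 (0.0414). KMO, the kynurenine monooxygenase, differed by 2.35 (adjusted p = 0.0454 from edgeR), with 1, 2 and 2 counts in the DU145 control libraries and 6 and 12 with overexpression, so its size rests on few reads.

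For the other 8 list genes the response was lower in DU145. ARNT2 differed by -2.54 (adjusted p = 0.000296), with 3 to 17 counts per PC3 library, and ALDH3A1 by -2.16 (4.37e-05). CYB5R3, a cytochrome b5 reductase, differed by -0.79 (0.000424) with log2 fold changes of 0.23 in PC3 and -0.55 in DU145. EREG, a growth factor known as an AHR target, differed by -0.75 (0.0186), SIM2 by -0.49 (0.00575), GSTP1 by -0.41 (0.0189) and POR by -0.39 (adjusted p = 0.0264 from edgeR). In POR, CYB5R3 and GSTP1 the DU145 overexpression replicate 2 was lower than replicate 3, for instance 127 against 169 CPM for CYB5R3.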

How the results depend on the processing

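Of 34 gene values, 4 changed sign under at least 1 alternative, none of them past the thresholds. These were AHRR in PC3 (-0.08 to 0.031), CYP1A1 in PC3 (-0.148 to 0.466), CYP1B1 in DU145 (-0.04 to 0.172) and the line difference of TIPARP (-0.007 to 0.155). In DU145 the 2 called genes of the group became 1 with DESeq2 and 4 with an adjusted p alone, and ranged from 1 to 2 with 1 library left out, since CYP1A1 was lost. Its log2 fold change ranged from 0.501 to 1.058 there, while AHR ranged from 0.619 to 0.654. The 7 list genes called in DU145 became 14 with an adjusted p alone and ranged from 7 to 11 with 1 library left out, with 11 without overexpression replicate 3. In PC3 the 1 called gene of the group became 2 and the 3 list genes became 17 with an adjusted p alone, and the list genes became 1 with DESeq2 and ranged from 1 to 4 with 1 library left out, with 1 without control replicate 1 and 1 without overexpression replicate 2. CYP1B1 in PC3 ranged from 3.681 to 4.76, and without PC3 control replicate 2 its difference between control lines was 7.943 and that of the effect between lines -4.691. With an absolute difference over 0.58 as well, the 16 list genes with a line difference became 9, and the count for the group, which is a description because the PC3 contrast chose it, went from 2 to 1. With 1 library left out, the list genes with a line difference ranged from 12 to 21. A fit that left out 1 DU145 overexpression library assumes that the lone library varies like the other groups. The causes of these changes were not tested.

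Replicate numbers did not pair the PC3 libraries, as deviations of same-numbered libraries correlated at -0.016, 0.013 and 0.045. Those of DU145 correlated at 0.062 for replicate 2 and 0.237 for replicate 3. Same-numbered control libraries of the 2 lines, for comparison, correlated at 0.047, 0.03 and 0.048. With 2 overexpression libraries in DU145, the deviations of the pair from their mean are the same values with opposite sign. The DU145 correlations therefore cannot decide whether replicates are paired, and the main fits did not use replicate numbers. With the replicate block 8 list genes were called in DU145 and 2 in PC3, where ALDH3A1 was lost (0.584, adjusted p = 0.0509), and CYP1B1 in PC3 was at 4.02. Low depth limits CYP1A1, CYP1B1 in control cells and ARNT2 in PC3, as well as IDO1, PTGS2, KMO and HAAO.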
